A study of Mus musculus with 16 samples.

Results

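The steroid hormone receptors and their estrogen-related relatives were examined in mouse quadriceps, as transcripts that tamoxifen or its relatives may act on. The group holds 9 genes, taken as the rows of the gene table whose symbol matched *Esr1*, *Esr2*, *Gper1*, *Pgr*, *Nr3c1*, *Nr3c2*, *Esrra*, *Esrrb* or *Esrrg*, out of 41388 genes in all. All 9 were found once. RNA came from the quadriceps of C57BL/6 mice at postnatal day 36. WT mice were wild type, and *Mtm1* KO mice carry a germline deletion of exon 4 of *Mtm1*, the gene of the lipid phosphatase myotubularin, and serve as a model of X-linked myotubular myopathy. WT + TAM and *Mtm1* KO + TAM mice received tamoxifen-citrate mixed into the chow at 40 mg/kg per day from day 21, and the other mice received standard chow. The comparisons used 3 libraries of each genotype on standard chow and 4 of each on tamoxifen, and asked how the receptors respond to loss of *Mtm1*, to tamoxifen, and to tamoxifen in each genotype.

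Steroid receptors are transcription factors that bind DNA once a hormone occupies them. Estrogen receptor alpha (*Esr1*) and beta (*Esr2*) bind estradiol, and tamoxifen and its metabolites compete for the same pocket, acting as antagonist or agonist according to the tissue. GPER1 is a membrane receptor for estrogens and is not related to the others by descent. The progesterone receptor (*Pgr*) is a classical gene induced through estrogen receptors. The glucocorticoid receptor (*Nr3c1*) drives protein breakdown and metabolic genes in skeletal muscle, and the mineralocorticoid receptor (*Nr3c2*) is its closest relative. The estrogen-related receptors (*Esrra*, *Esrrb*, *Esrrg*) do not bind estradiol and turn on genes of mitochondrial energy metabolism, for which skeletal muscle is a well-known site.

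Library totals of the 14 libraries ranged from 25702605 to 29847222 counts. *Mtm1* itself had 341 to 369 counts in WT, 282 to 459 in WT + TAM, 63 to 76 in *Mtm1* KO and 53 to 97 in *Mtm1* KO + TAM, and differed between *Mtm1* KO and WT by a log2 fold change of -2.56 (SE 0.17, adjusted p = 2.14e-04, edgeR quasi-likelihood test). The library labelled WT replicate 1 held 74 *Mtm1* counts, as few as the *Mtm1* KO libraries, and was left out with the library labelled KO replicate 12, since the study used 14 samples. Other genes of WT replicate 1 went both ways. *Cdkn1a* had 1053 counts there, against 804, 683 and 963 in WT and 9553, 9060 and 18336 in *Mtm1* KO. *Actn3* had 153825, against 237679, 301670 and 228277 in WT and 101398, 108161 and 151971 in *Mtm1* KO. Its 10 highest genes made up 26.9% of the library. The 10 highest genes made up 23.6 to 27.6% of a WT library and 16.9 to 18.8% of a *Mtm1* KO library. Scaling by library total alone moved the median difference over all genes to 0.33 (log2) for *Mtm1* KO against WT, from 0.023 with TMM scaling, and the split of called genes from 282 higher and 249 lower to 1023 higher and 140 lower. The same change moved the median to 0.27 in *Mtm1* KO + TAM against WT + TAM and to 0.28 against WT. There the split moved from 498 higher and 481 lower to 1657 higher and 217 lower, and from 532 higher and 618 lower to 1573 higher and 298 lower. The deposited RPKM values carry that total-count scaling, so they are used here for levels between genes, and CPM with TMM scaling for fitted differences between groups. Exact permutation tests of single receptors were made on RPKM and carry the total-count scaling. In whole muscle, fewer cells of a type and less RNA per cell cannot be told apart.

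The receptors spanned a wide range of levels per transcript length. Mean RPKM over the 14 libraries was 51.1 for *Esrra* (range 41.1 to 59.6) and 13.1 for *Nr3c1* (10.8 to 17.7), the 2 receptors whose range overlapped with no other member. The order continued with *Esrrg* at 2.51 (0.467 to 5.01), *Esr1* at 1.55 (1.015 to 2.53), *Nr3c2* at 0.992 (0.683 to 1.30), *Gper1* at 0.656 (0.343 to 1.03) and *Esrrb* at 0.383 (0.099 to 0.871). *Pgr* at 0.0843 (0 to 0.191) and *Esr2* at 0.0811 (0 to 0.206) stood last. From *Esrrg* downward every receptor overlapped with its neighbour in this order. Among genes with at least 1 count in the 14 libraries, *Esrra* lay above 96.2% in mean RPKM, *Esr1* above 59.9% and *Esr2* above 29.2%.

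**Figure D1:**
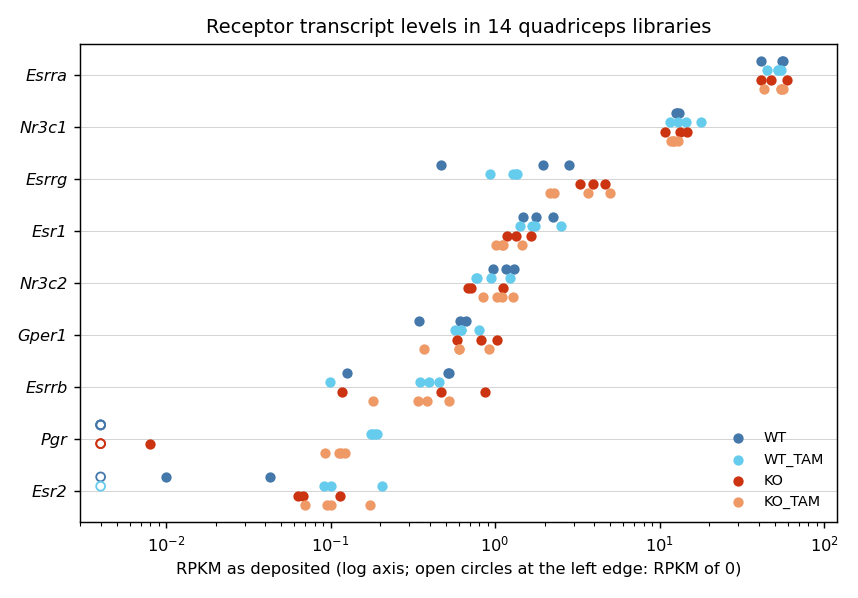
Deposited RPKM (log axis) of each receptor in every library of the 14, colored by group (WT_TAM and KO_TAM are the tamoxifen-fed groups; open circles at the left edge are libraries with an RPKM of 0). *Esrra* and *Nr3c1* stand clear above the others, and *Pgr* splits by diet, with its tamoxifen-fed libraries between 0.093 and 0.191 and the rest at or near 0.

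*Pgr* was the receptor that separated the diets. Its gene (ENSMUSG00000031870) lies on the plus strand of chromosome 9 from 8899833 to 8968611 (GRCm38, GENCODE vM21), and it shares no 50-base exon stretch with any other annotated gene. The 250 bases before its start, at chr9:8899583-8899832 on the plus strand (RefSeq, GRCm38.p6), are printed because *Pgr* is the member that tamoxifen moved, with the single match to a GC box (GGGCGG) in capitals:
Pgr upstream: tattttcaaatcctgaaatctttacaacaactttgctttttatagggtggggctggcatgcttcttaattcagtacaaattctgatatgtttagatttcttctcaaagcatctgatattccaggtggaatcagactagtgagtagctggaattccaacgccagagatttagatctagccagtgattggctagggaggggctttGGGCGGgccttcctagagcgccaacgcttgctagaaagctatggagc
Searched on both strands, this window holds no estrogen response element (GGTCANNNTGACC), no half-site of it (GGTCA), no estrogen-related receptor element (TCAAGGTCA, which contains the half-site) and no half-site for the glucocorticoid and progesterone receptors (TGTTCT). The half-site GGTCA occurs in 35.2% of 32817 promoter windows of this length, the full element in 0.064%, TCAAGGTCA in 0.387%, TGTTCT in 16.1% and the GC box in 32.7%. Among 13 windows of the 8 receptors found in the promoter table, 3 held GGTCA, 1 held TGTTCT, 5 held the GC box and none held either longer element.

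No *Pgr* read was counted in the 3 WT libraries, whereas the 4 WT + TAM libraries held 41, 41, 42 and 39 counts. *Mtm1* KO libraries held 0, 0 and 2 counts, and *Mtm1* KO + TAM libraries held 23, 29, 31 and 27. Every tamoxifen-fed library thus stood above every library on standard chow, in both genotypes, at a level of fewer than 50 reads per library. Relative to library totals, *Pgr* was at least 43.4-fold higher in WT + TAM than in WT, with the WT libraries together set at a floor of 3 counts, and at least 28.7-fold without WT replicate 2. *Mtm1* KO + TAM exceeded *Mtm1* KO by 37.9-fold, with a 95% exact interval of 10.2 to 317 that covers counting error only. Both *Mtm1* KO counts came from replicate 11, and without it the difference was at least 16.4-fold. *Mtm1* KO + TAM was at least 26.2-fold higher than WT, and at least 17.3-fold without WT replicate 2.

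By the edgeR quasi-likelihood test at an adjusted p of 0.01, *Pgr* was called higher in WT + TAM than in WT (adjusted p = 0.00447), 1 of 8 tested members in a comparison that called 0.131% of 14544 genes. This call did not survive the removal of any 1 of the 7 libraries, with adjusted p from 0.0107 to 0.0241, although the groups did not overlap. Within *Mtm1* KO, *Pgr* ranked 8 by p among 15062 genes in the tamoxifen comparison but did not pass (adjusted p = 0.0600), and neither did any other gene (0 of 15062, or 0%). There, 1137 genes had an unadjusted p under 0.05, while 68 genes passed with DESeq2 and 72 with the exact test of edgeR, *Pgr* among both (adjusted p = 0.00121 and 1.16e-09). Without a filter on low counts *Pgr* passed as well (adjusted p = 0.00788). Against WT, *Pgr* was called higher in *Mtm1* KO + TAM (adjusted p = 0.00120), together with *Esr1*, 2 of 8 tested members where 7.7% of 14942 genes were called.

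*Pgr* CPM also differed in level between the tamoxifen-fed groups, but most settings did not call it. CPM was 1.77, 1.66, 1.77 and 1.63 in WT + TAM and 0.768, 0.873, 0.889 and 0.903 in *Mtm1* KO + TAM, so the groups did not overlap. The log2 fold change of -1.01 (SE 0.25, TMM) missed the threshold by edgeR (adjusted p = 0.0204), and passed with DESeq2 (0.00957) and edgeR's exact test (0.00251). The other 7 of 9 settings of tool, scaling, filter and fit did not call it. Scaled by library total, the quasi-likelihood test gave -0.72 (adjusted p = 0.0645). None of the 8 fits that left out 1 library called it (adjusted p 0.0350 to 0.0562 by edgeR). Pooled counts, relative to library totals and not scaled by TMM, gave a ratio of 1.65 in favour of WT + TAM. Its 95% exact interval of 1.29 to 2.13 covers counting error only and not the spread between mice. An exact permutation test on RPKM gave a two-sided p of 0.0286, the smallest that 4 against 4 libraries allow.

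Among 20 listed estrogen receptor target genes other than *Pgr*, 15 passed the filter in most comparisons. In WT + TAM against WT, where 0.131% of all genes were called, 1 of 15 rose and none fell. This was *Oxtr*, the oxytocin receptor, with 6, 1 and 6 counts in WT and 137, 212, 200 and 160 in WT + TAM (log2 fold change 5.41, SE 0.40, adjusted p = 8.81e-04). None of 15 was called in *Mtm1* KO + TAM against *Mtm1* KO. *Oxtr* there had 29, 8 and 10 counts in *Mtm1* KO and 117, 76, 71 and 266 with tamoxifen (log2 fold change 3.03, SE 0.63, adjusted p = 0.187).

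*Greb1*, an estrogen receptor cofactor induced by estrogen, showed 5, 8 and 5 counts in *Mtm1* KO and 43, 38, 56 and 40 in *Mtm1* KO + TAM (log2 fold change 2.77, SE 0.41, adjusted p = 0.0600). In WT it had 1, 7 and 6 counts, and in WT + TAM 14, 16, 9 and 23 (log2 fold change 1.78, SE 0.64, adjusted p = 0.352). Of the 50-base stretches of *Greb1*, 5.73% are shared with other genes, the most with an antisense gene that overlaps 7.68% of its exon bases. Some *Greb1* reads may thus not be its own. Against WT, where 7.7% of all genes were called, *Mtm1* KO + TAM had 3 of 15 targets higher, *Myc*, *Oxtr* and *Greb1*, and none lower. The call of *Greb1* held in 3 of 7 fits that left out 1 library, and those of *Myc* and *Oxtr* in all 7. *Myc*, a growth regulator with many other inputs, was also higher in *Mtm1* KO + TAM than in WT + TAM (log2 fold change 1.26, SE 0.20, adjusted p = 0.00232). The median log2 fold change of the targets was -0.25 in WT + TAM against WT and 0.17 in *Mtm1* KO + TAM against *Mtm1* KO, beside -0.0036 and -0.0095 over all genes tested.

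**Figure D2:**
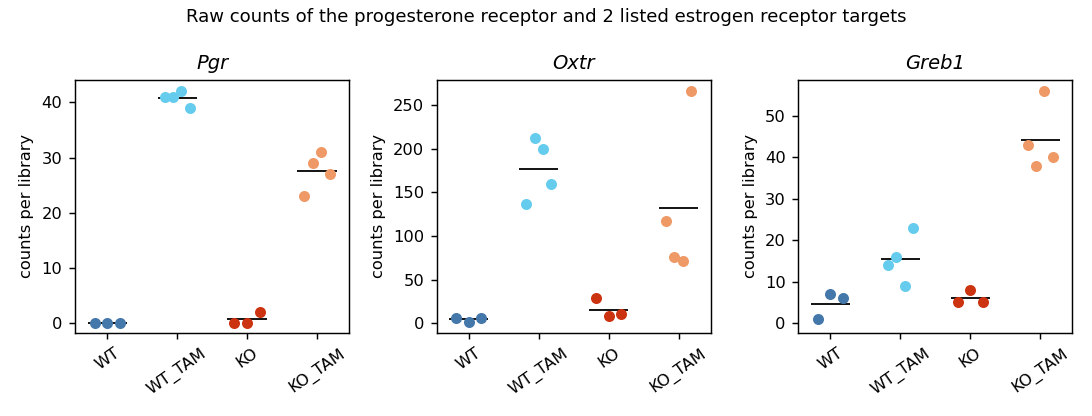
Raw counts per library (points) and group means (lines) of *Pgr*, *Oxtr* and *Greb1* in the 4 groups. *Pgr* is at 0 to 2 counts on standard chow and at 23 to 42 with tamoxifen, while *Oxtr* and *Greb1* start above 0 and spread more among *Mtm1* KO + TAM libraries.

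No marker of the 8 cell type lists was called in WT + TAM against WT. The summed CPM of 7 endothelial markers was 330 to 487 in WT and 253 to 332 in WT + TAM, and 276 to 398 in *Mtm1* KO and 205 to 321 in *Mtm1* KO + TAM, with all 7 fitted values below 0 in both tamoxifen comparisons. Its part in the *Pgr* result was not tested.

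*Esr1*, which encodes estrogen receptor alpha, was lower in *Mtm1* KO + TAM than in either WT group, and its CPM separated the libraries by genotype. The gene (ENSMUSG00000019768) lies on the plus strand of chromosome 10 from 4611593 to 5005614. Its CPM was 25.1, 23.97 and 32.4 in WT and 19.8, 15.4 and 14.5 in *Mtm1* KO. In WT + TAM it was 21.7, 37.6, 24.7 and 25.97, and in *Mtm1* KO + TAM 14.8, 12.3, 12.9 and 18.8. All 7 *Mtm1* KO libraries, fed tamoxifen or not, lay below all 7 WT libraries on this scale. In deposited RPKM the same groups touched, at 1.18 to 1.66 in *Mtm1* KO against 1.48 to 2.26 in WT, and 1.015 to 1.45 in *Mtm1* KO + TAM against 1.42 to 2.53 in WT + TAM.

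The difference between *Mtm1* KO + TAM and WT + TAM passed the test (log2 fold change -0.92, SE 0.19, adjusted p = 0.00704), the only member called of 8 tested there, where 6.72% of 14563 genes were called. The call was lost without WT + TAM replicate 6, 7 or 8 or *Mtm1* KO + TAM replicate 13, 14 or 15, with adjusted p of at most 0.0312, and under scaling by library total (-0.65, adjusted p = 0.0207). So did that between *Mtm1* KO + TAM and WT (-0.92, SE 0.17, adjusted p = 0.00494), which was lost without WT replicate 2 or 4 or *Mtm1* KO + TAM replicate 13, 14 or 15. In *Mtm1* KO against WT the log2 fold change of -0.72 (SE 0.17) missed the threshold by the quasi-likelihood test (adjusted p = 0.0291), and none of 7 tested members passed in that comparison, which called 3.6% of 14740 genes. DESeq2 (adjusted p = 0.00363) and edgeR's exact test (0.00621) called *Esr1* there. With tamoxifen in *Mtm1* KO the log2 fold change was -0.19 (SE 0.17, adjusted p = 0.875). In WT, mean CPM was 27.2 ± 4.58 (SD, n = 3) without and 27.5 ± 6.97 (SD, n = 4) with tamoxifen, a difference smaller than the spread between libraries.

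The sum of skeletal muscle markers moved with the same genotype split. The summed CPM of 10 such markers was 175030 to 242430 in WT and 188070 to 199680 in WT + TAM, against 102800 to 122620 in *Mtm1* KO and 93580 to 135600 in *Mtm1* KO + TAM, and no marker was at 0 over the 14 libraries. Of these, *Actn3* fell in *Mtm1* KO against WT, and *Actn3*, *Myh4*, *Pvalb* and *Ckm* fell in *Mtm1* KO + TAM against WT + TAM, 4 of 10. Against WT, *Actn3*, *Myh4* and *Pvalb* fell in *Mtm1* KO + TAM. The share of all genes called was 3.6, 6.72 and 7.7% in these 3 comparisons. In each of them, 2 of the 10 markers had fitted values above 0. The highest was *Myh1* at 0.97 in *Mtm1* KO against WT and at 1.31 in *Mtm1* KO + TAM against WT. Between the tamoxifen-fed groups it was *Mb* at 0.999. *Mfap5*, among 8 fibroblast markers, rose in all 3 comparisons of a *Mtm1* KO group with a WT group. *Calcr*, among 5 satellite cell markers, fell in *Mtm1* KO and in *Mtm1* KO + TAM against WT. In both, 1 of the 5 had a fitted value above 0, *Myod1* at 0.62 and 0.42. The summed CPM of the 5 overlapped, at 38.8 to 47.9 in WT, 40.1 to 60.4 in *Mtm1* KO and 37.8 to 60.3 in *Mtm1* KO + TAM. *Cdh5*, of endothelial cells, fell in *Mtm1* KO + TAM against WT. With 1 library left out in turn, *Actn3* and *Mfap5* kept their calls in 1 of 6 fits in *Mtm1* KO against WT and *Calcr* in 0 of 6, while *Actn3*, *Myh4* and *Mfap5* kept theirs in all 8 fits in *Mtm1* KO + TAM against WT + TAM. Fat cell, leukocyte and red blood cell lists held no called gene. The part of these shifts in the *Esr1* result was not tested.

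**Figure D3:**
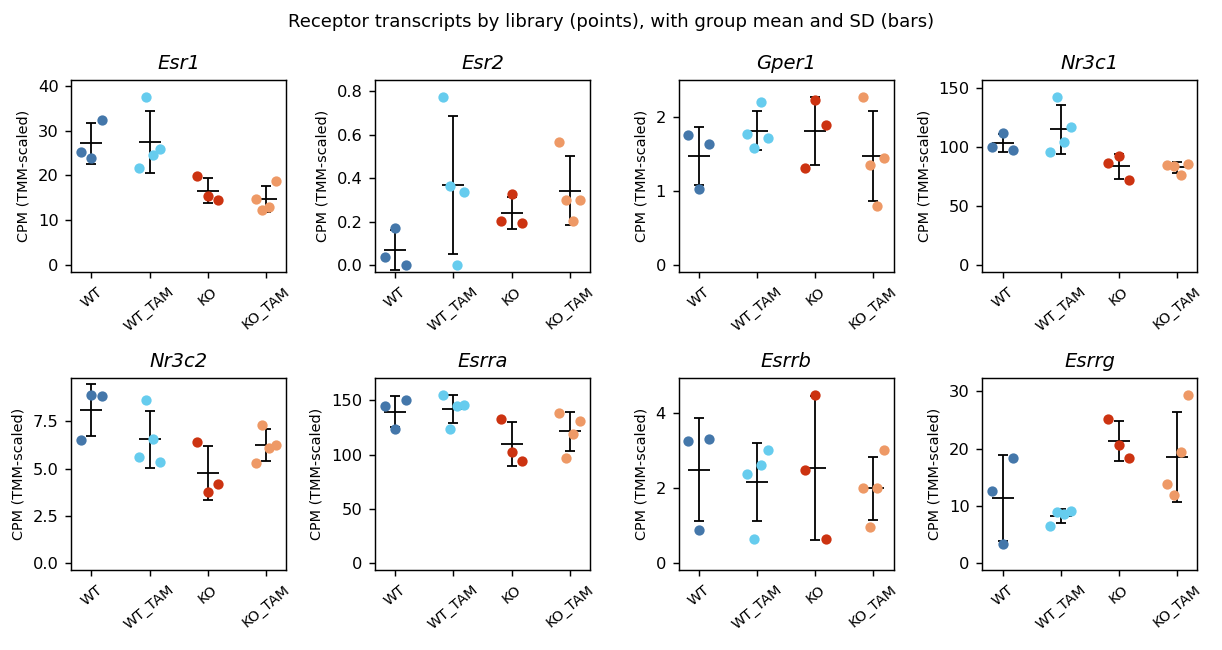
CPM with TMM scaling of 8 receptors by library (points), with the mean and SD of each group (bars), for the 4 groups. *Esr1* lies between 21.7 and 37.6 in the WT groups and between 12.3 and 19.8 in the *Mtm1* KO groups, while *Gper1*, *Esrrb* and *Esrra* overlap across groups.

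The other estrogen receptors were scarce. *Esr2* (ENSMUSG00000021055, minus strand of chromosome 12, 76120419 to 76177259) had 1, 4 and 0 counts in WT, 18, 9, 0 and 8 in WT + TAM, 6, 10 and 6 in *Mtm1* KO and 17, 10, 7 and 9 in *Mtm1* KO + TAM. The 7 *Mtm1* KO libraries all exceeded the 3 WT libraries, and the WT + TAM libraries ranged across both. *Esr2* did not pass the filter on low counts in any pairwise fit. An exact permutation test on RPKM gave a two-sided p of 0.1 for *Mtm1* KO against WT and 0.0571 for *Mtm1* KO + TAM against WT, in each case the smallest that the design allows. *Gper1* (ENSMUSG00000053647, plus strand of chromosome 5, 139423151 to 139427800) had 24 to 48 counts in WT, 39 to 52 in WT + TAM, 39 to 68 in *Mtm1* KO and 28 to 68 in *Mtm1* KO + TAM. Its groups overlapped in every comparison and it was called in none.

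The glucocorticoid receptor gene *Nr3c1* (ENSMUSG00000024431, minus strand of chromosome 18, 39410545 to 39519421) was the second most abundant member. CPM was 100.3, 112 and 97.9 in WT and 87.1, 92.2 and 72.0 in *Mtm1* KO. It was 95.8, 143, 105 and 117 in WT + TAM and 84.8, 84.5, 76.1 and 86.0 in *Mtm1* KO + TAM. On this scale the *Mtm1* KO libraries lay below the WT libraries of the same diet, whereas RPKM overlapped, at 10.8 to 14.6 in *Mtm1* KO and 12.6 to 13.03 in WT.

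*Nr3c1* did not pass in any comparison by the quasi-likelihood test. The log2 fold change was -0.49 (SE 0.13, adjusted p = 0.0238) in *Mtm1* KO + TAM against WT + TAM and -0.35 (SE 0.11, adjusted p = 0.0428) against WT. DESeq2 (adjusted p = 0.00646) and edgeR's exact test (0.00902) called the former. In *Mtm1* KO against WT the value was -0.30 (SE 0.13, adjusted p = 0.169) with TMM and 0.016 when scaled by library total, so its direction rested on the scaling.

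All 24 listed targets of the glucocorticoid receptor were tested. In *Mtm1* KO against WT, where 3.6% of all genes were called, 3 rose and none fell. They were *Cdkn1a*, a cell cycle inhibitor (804, 683 and 963 counts in WT, and 9553, 9060 and 18336 in *Mtm1* KO), and the metallothioneins *Mt2* and *Mt1*, which bind zinc (log2 fold changes 3.65, 4.81 and 3.29). All 3 also answer to signals other than glucocorticoids, such as p53 and metals. Between the tamoxifen-fed genotypes, *Cdkn1a* rose in *Mtm1* KO + TAM (2.63, SE 0.25) and *Sesn1*, *Sgk1* and *Per1* fell by 0.71, 0.94 and 0.72 on the log2 scale. These made up 16.7% of the 24, beside 6.72% of all genes. Against WT, *Cdkn1a*, *Mt2*, *Glul* and *Mt1* rose and *Sgk1* fell in *Mtm1* KO + TAM, 5 of 24 beside 7.7% of all genes. With 1 library left out in turn, *Cdkn1a* and *Mt2* kept every call, *Mt1* kept its call against WT in 3 of 7 fits, and *Per1* kept its call in 0 of 8. Scaled by library total, 5 of 24 were called higher in *Mtm1* KO against WT, and in *Mtm1* KO + TAM against WT + TAM 2 were called higher and none lower.

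With tamoxifen none of the 24 passed in either genotype. In WT + TAM against WT, 20 of 24 had values above 0, with a median log2 fold change of 0.78, from -0.44 for *Angptl4* to 1.91 for *Mt2*. The 4 WT + TAM libraries were not alike in these targets. The median over the 24 of log2 CPM minus the WT mean was 0.863 in replicate 5 and 0.874 in replicate 6, but 0.301 in replicate 7 and 0.286 in replicate 8. *Glul*, glutamine synthetase, had 7643, 5515 and 4083 counts in WT and 23954, 26986, 5438 and 5341 in WT + TAM. *Mt2* had 226, 274 and 178 counts in WT and 1453, 1054, 348 and 346 in WT + TAM. With any 1 library left out, the fitted median ran from 0.622 (without WT + TAM replicate 6) to 0.801 (without replicate 8). For *Mtm1* KO + TAM against *Mtm1* KO, 11 of 24 were above 0, with a median of -0.077. The difference between the 2 effects was below 0 for 23 of 24, with a median of -0.78 beside 0.0094 over all genes, and was called for none. Of the 8 fat cell markers, 8 were above 0 in WT + TAM against WT (median 0.75) and 0 of 8 were above 0 for the difference between effects (median -1.18). The former median rested on single libraries. It became 2.88 when WT replicate 2 was dropped, 0.315 for replicate 3, 0.446 for replicate 4 and 0.375 for WT + TAM replicate 5. Their summed CPM was 283 to 1909.8 in WT, 780.04 to 3087.4 in WT + TAM, 1056.3 to 1943 in *Mtm1* KO and 1003.7 to 1517.8 in *Mtm1* KO + TAM, and their part in these values was not tested.

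*Nr3c2*, the mineralocorticoid receptor gene (ENSMUSG00000031618, plus strand of chromosome 8, 76899442 to 77245012), had a CPM of 6.48, 8.88 and 8.83 in WT and 6.37, 3.75 and 4.19 in *Mtm1* KO. In WT + TAM it was 5.60, 8.62, 6.57 and 5.34, and in *Mtm1* KO + TAM 5.28, 7.32, 6.08 and 6.25. On this scale the *Mtm1* KO libraries lay just under the WT libraries, and the tamoxifen-fed groups overlapped. RPKM overlapped, at 0.683 to 1.12 in *Mtm1* KO and 0.965 to 1.30 in WT. Scaled by library total, the log2 fold change of *Mtm1* KO against WT was -0.44 (adjusted p = 0.205 by the quasi-likelihood test). Fitted log2 fold changes were -0.76 for *Mtm1* KO against WT (SE 0.24, adjusted p = 0.0719), 0.37 for *Mtm1* KO + TAM against *Mtm1* KO (SE 0.22, adjusted p = 0.781) and, for *Mtm1* KO + TAM against WT, -0.40 (SE 0.18, adjusted p = 0.155). An antisense gene with 60 counts in all shares 3.81% of the exon bases of *Nr3c2*. Of 23 listed genes of steroid synthesis and inactivation, 11 to 13 were tested per comparison. Only 1 was called, 7.69% of those tested in its comparison beside 7.7% of all genes. *H6pd*, which supplies the cofactor for regenerating active glucocorticoid, fell by 0.63 on the log2 scale in *Mtm1* KO + TAM against WT (SE 0.13, adjusted p = 0.00716), a call kept in 1 of 7 fits that left out 1 library.

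Of the estrogen-related receptors, *Esrra* was abundant and steady, and *Esrrb* and *Esrrg* each spread widely for their level in some groups. *Esrra* (ENSMUSG00000024955, minus strand of chromosome 19, 6910977 to 6921813) had a CPM of 124 to 150.08 in WT, 124 to 155 in WT + TAM, 93.9 to 132 in *Mtm1* KO and 97.3 to 138 in *Mtm1* KO + TAM. It was called in no comparison, with a log2 fold change of -0.35 (SE 0.16, adjusted p = 0.175) in *Mtm1* KO against WT that shrank to -0.041 under scaling by library total. The opposite-strand gene *Trmt112*, with 16175 counts over the 14 libraries, overlaps 1.66% of its exon bases. *Esrrb* (ENSMUSG00000021255, plus strand of chromosome 12, 86361117 to 86521628) had 21 to 89 counts in WT, 16 to 72 in WT + TAM, 20 to 137 in *Mtm1* KO and 32 to 90 in *Mtm1* KO + TAM. It overlapped in all comparisons and was called in none.

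*Esrrg* (ENSMUSG00000026610, plus strand of chromosome 1, 187608791 to 188214885), the family member most associated with oxidative fibers, had a CPM of 12.6, 3.43 and 18.3 in WT and 25.2, 20.7 and 18.3 in *Mtm1* KO. In WT + TAM it was 6.46, 9.03, 8.64 and 9.10, and in *Mtm1* KO + TAM 13.8, 11.9, 19.4 and 29.4. The tamoxifen-fed groups did not overlap, and the WT and *Mtm1* KO + TAM libraries spread widely (SD 7.51 and 7.84). The log2 fold change in *Mtm1* KO + TAM against WT + TAM was 1.14 (SE 0.25), and edgeR's quasi-likelihood test put its adjusted p at 0.0116, just above the threshold of 0.01.

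Of 9 other settings of tool, scaling, filter and fit, 6 called *Esrrg* in this comparison, with adjusted p of 1.56e-04 by DESeq2, 3.61e-04 by edgeR's exact test, 0.00237 under scaling by library total, 0.00249 without a filter and 0.00615 and 0.00872 with limma on log2 RPKM. It was also called at 0.00749 without *Mtm1* KO + TAM replicate 14. The call was not made with RLE size factors (0.0111), with at least 10 counts in every library (0.0115), in 1 fit of the 4 groups (0.0434) or in the other 7 of 8 fits that left out a library (up to 0.0352). An exact permutation test on RPKM gave 0.0286, the smallest p possible. In *Mtm1* KO against WT the value was 0.89 (SE 0.46, adjusted p = 0.228), in *Mtm1* KO + TAM against WT 0.66 (SE 0.46, adjusted p = 0.350) and in WT + TAM against WT -0.49 (SE 0.43, adjusted p = 0.740). The last reached 0.032 without WT replicate 4. The skeletal muscle marker sums given for *Esr1* split by genotype as well, but in the opposite direction. They were lower in the *Mtm1* KO groups, where mean *Esrrg* CPM was higher, and their part was not tested.

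**Figure D4:**
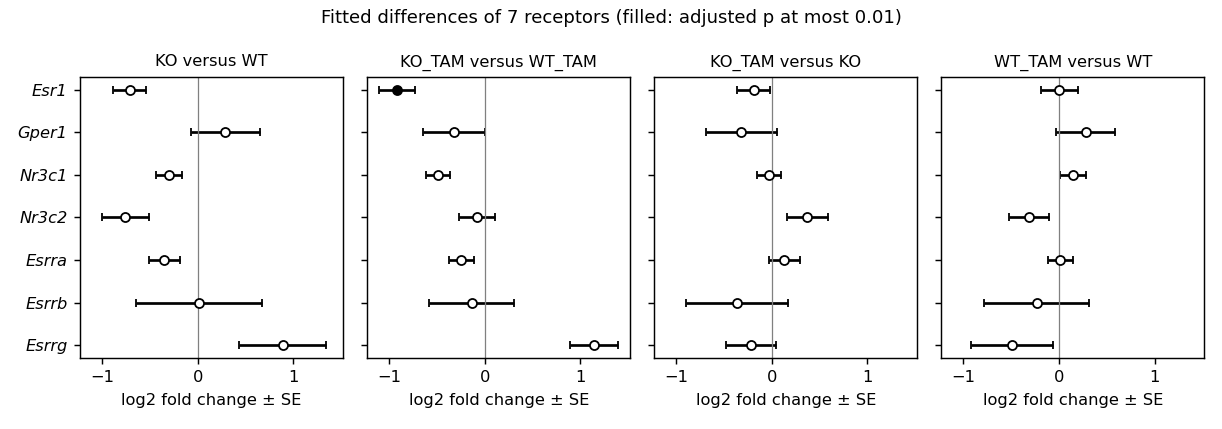
Log2 fold changes of 7 receptors, with an SE derived from the test statistic, in the 4 comparisons that change genotype or diet alone (edgeR, TMM scaling). Filled points have an adjusted p of at most 0.01. *Esr1* in KO_TAM versus WT_TAM at -0.92 is the single filled point, and *Esrrg* there stands at 1.14.

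Of 32 listed targets of the estrogen-related receptors, all were tested and few passed. The share of all genes called was 0.131% in WT + TAM against WT and 6.72% in *Mtm1* KO + TAM against WT + TAM. It was 7.7% in *Mtm1* KO + TAM against WT. In WT + TAM against WT, *Tfam*, which maintains mitochondrial DNA, rose (1232, 1178 and 1166 counts in WT and 2267, 2239, 2139 and 2227 in WT + TAM, log2 fold change 0.99, SE 0.098, adjusted p = 0.00295), 1 of 32. The groups did not overlap, but the call was lost in 6 of the 7 fits that left out 1 library, with adjusted p up to 0.026, and held without WT + TAM replicate 6. *Ucp3*, an uncoupling protein of muscle mitochondria, fell in *Mtm1* KO + TAM against WT + TAM (-1.07, SE 0.18, adjusted p = 0.00322), also 1 of 32, a call kept in 4 of 8 fits that left out 1 library. Against WT, *Ucp3* and *Idh3a*, a citric acid cycle enzyme, fell in *Mtm1* KO + TAM, and none passed in *Mtm1* KO against WT or in *Mtm1* KO + TAM against *Mtm1* KO. With tamoxifen in *Mtm1* KO, fitted values ran from -1.37 for *Pdk4* to 0.63 for *Tfam*. *Tfam* had 1459, 1103 and 1189 counts in *Mtm1* KO and 2180, 2286, 1781 and 1892 in *Mtm1* KO + TAM, with no overlap but without a call. Fitted values lay below 0 for 28 of 32 in *Mtm1* KO against WT (median -0.28) and for 28 of 32 in *Mtm1* KO + TAM against WT + TAM (median -0.28), while *Esrrg* itself was above 0 in both. Scaled by library total, 14 of 32 and 16 of 32 lay below 0, with medians of 0.019 and -0.0038, so the common direction rested on the scaling.

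Coregulators and chaperones, which carry steroid receptors or link them to the transcription machinery, were all tested, 25 in each comparison. In *Mtm1* KO against WT 4% of them were called, beside 3.6% of all genes. The shares were 8% beside 6.72% in *Mtm1* KO + TAM against WT + TAM, and 12% beside 7.7% against WT. *Hsp90aa1*, the chaperone that holds steroid receptors ready for hormone, rose in *Mtm1* KO against WT (log2 fold change 0.88, SE 0.14, adjusted p = 0.00562). *Fkbp4*, a co-chaperone of these receptors, and *Ncoa1*, a coactivator, fell in *Mtm1* KO + TAM against WT + TAM by 0.58 and 0.59 on the log2 scale. *Carm1* and *Ncoa4* fell and *Crebbp* rose in *Mtm1* KO + TAM against WT. With 1 library left out in turn, *Hsp90aa1* was called in 1 of 6 fits (adjusted p up to 0.026), *Fkbp4* in 2 of 8, *Ncoa1* in 1 of 8 (both up to 0.0319), *Carm1* in 3 of 7, *Ncoa4* in 1 of 7 and *Crebbp* in 0 of 7 (0.0123 to 0.0407). *Hsp90aa1* also lost its call in 1 fit of the 4 groups (0.0487) and with 16 libraries (0.144). None passed in the 2 comparisons of tamoxifen with standard chow. Scaled by library total, none of the 25 was called lower in any comparison. Called higher were 2 in *Mtm1* KO against WT, 1 in *Mtm1* KO + TAM against WT + TAM and 3 against WT. Of all 14740, 14563 and 14942 genes tested there, 140, 217 and 298 were lower and 1023, 1657 and 1573 higher under that scaling.

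Whether tamoxifen acted differently in the 2 genotypes was tested as the change in *Mtm1* KO minus the change in WT, in 1 fit of the 4 groups. None of the 9 members was called, and none of 15556 genes (0%) by edgeR, with 664 genes at an unadjusted p under 0.05, while DESeq2 called 12 genes and no member. *Nr3c2* had the lowest unadjusted p of the 9, with a difference between effects of 0.69 (SE 0.30, adjusted p = 0.9998). For *Esr1* the difference was -0.18 (SE 0.28). *Pgr* has WT libraries at 0, so its fitted value depends on the prior count and is not given.

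**Figure D5:**
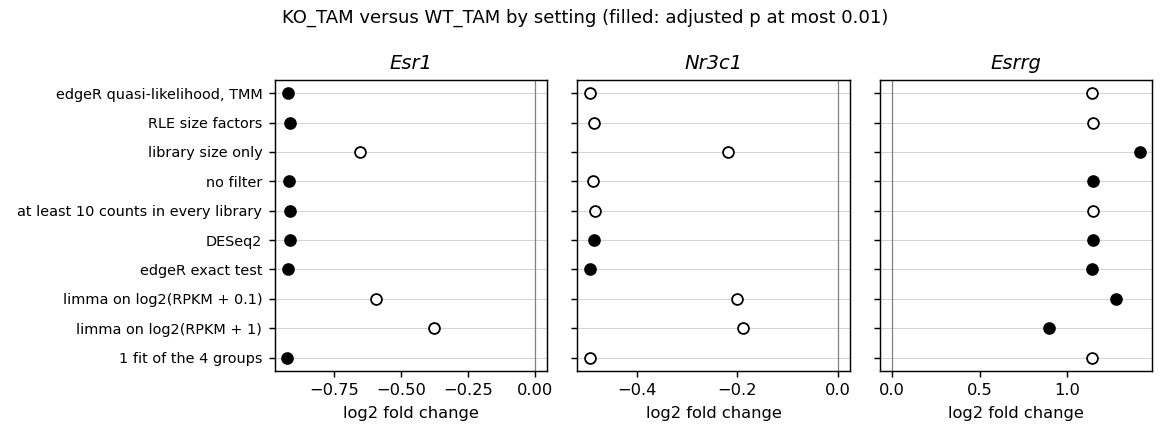
Log2 fold change of *Esr1*, *Nr3c1* and *Esrrg* in KO_TAM versus WT_TAM under 10 settings of normalization, filter and test (filled points have an adjusted p of at most 0.01). *Esr1* moves from -0.92 to -0.38, with open points for scaling by library total and for limma, and *Esrrg* stays between 0.90 and 1.42.

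The genes whose log2 CPM followed each receptor most closely over the 14 libraries are given as a description, since the 15556 genes searched share libraries, depth and group structure. *Esr1* was followed by *Crybg3* (Pearson r = 0.963) and *Stk24* (0.959), and *Pgr* by *Flrt1* (0.968) and *Gm16485* (0.958). *Nr3c1* was followed by *Pcmtd1* (0.940) and *Cacna2d1* (0.930), *Nr3c2* by *Zbtb33* (0.932) and *Rad17* (0.925), and *Gper1* by *Rarg* (0.891) and *Tcf15* (0.842). *Esrra* was closest to *Timm44* (0.939) and *Acot13* (0.934), which encode mitochondrial proteins, *Esrrb* to *Hdac7* (0.851) and *Suv420h2* (0.850), and *Esrrg* to *Atp1b1* (0.903) and *Gm5532* (0.902). *Esr2* was closest to *4930538K18Rik* (0.892) and *2310010G23Rik* (0.874). Among the members themselves, the closest pair was *Esr1* and *Nr3c1* (r = 0.859 over the same 14 libraries).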

How the data were processed

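Per the authors, reads were aligned to GRCm38 with STAR in 2 steps and counted per gene with HTSeq, and the deposited raw counts are unscaled whole numbers. The submitters' processing notes list STAR 2.5.0c, bcl2fastq 2.17 and Cufflinks 2.2.1. The RPKM values deposited by the authors followed counts divided by column total (1061 genes, largest relative deviation 1.81e-04). No annotation or strand setting is given in the sources used here, so reads of overlapping antisense genes cannot be told apart.

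Counts of the 14 libraries that the study analysed were tested pairwise with R 4.3.3 and edgeR 4.0.16 (filterByExpr with minimum count 10, TMM, quasi-likelihood test, Benjamini-Hochberg adjustment, called at an adjusted p of at most 0.01), and the interaction in 1 fit of 4 groups. CPM is the count scaled to library size with TMM factors. SE was derived from the test, as the absolute log2 fold change divided by the square root of the quasi-likelihood F statistic. Single levels were compared by exact permutation tests. Library totals of 25702605 to 29847222 counts set the precision, and a count of 0 allows 3 counts. No pair of the 120 library pairs was identical, a check that cannot tell whether 2 libraries came from separate mice. WT + TAM replicates 7 and 8 were close in some genes, such as *Cdh5* (1970 and 1972 counts) and *Per1* (2005 and 2001). They lay further apart in others, such as *Nr3c1* (2483 and 2814). The paper counts each library as a separate mouse, and the tests here do the same.

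The members and the hand-written lists (other nuclear receptors, coregulators and chaperones, steroid synthesis, and targets of estrogen, glucocorticoid and estrogen-related receptors, with 8 cell type marker lists) were chosen with earlier results of these data known. All 9 members were named, with called list genes (at most 4 of lowest p per list and comparison), the 2 most correlated genes per member and *Mtm1*. List genes named without a call, such as *Greb1* in tamoxifen comparisons, and *Rxrb* or *Mt1* beyond the 4 of a list were chosen after their values were seen. The alternatives tried were edgeR's exact test, DESeq2 1.42.0, limma 3.58.1 on log2 RPKM with pseudocounts of 0.1 and 1, RLE or library total scaling, other filters, an adjusted p of 0.05, 1 fit of 4 groups, 15 or 16 libraries, and each library left out. The test was checked on simulated data. Positions are from GENCODE vM21. Promoter windows from RefSeq matched 8 of the 9 members. Results of 1 cell type list are not reported here.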

Additional observations from a re-analysis of the deposited data

Results flagged for a closer look

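Replicate 1 labelled WT and replicate 12 labelled KO, which enter no comparison of the report, held some receptors above all 3 WT libraries in CPM. In the library labelled WT replicate 1 these were *Esrra* at 261.8, *Esrrb* at 8.27 and *Gper1* at 2.64, against highest WT values of 150.08, 3.31 and 1.76. In the library labelled KO replicate 12 these were *Esrrb* at 4.85, *Gper1* at 1.761 and *Esr2* at 0.252, against highest WT values of 3.31, 1.757 and 0.172. No *Pgr* count was present in either library, and *Esr1* CPM was 17.5 and 10.7, below every WT library. In groups of 4 libraries, 1 value of 18 groups looked at stood apart, *Nr3c1* in *Mtm1* KO + TAM replicate 15 at a CPM of 76.1, with the other 3 libraries between 84.5 and 86.0. Chance flags about 1 in 20 such groups.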

How the results depend on the processing

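Counts of called members changed with the tool and filter, and the causes were not tested. The share of all genes called changed with the setting too. These counts can therefore not be read against the shares given for the main fits. In *Mtm1* KO against WT, DESeq2, edgeR's exact test and a threshold of 0.05 called 1 member, *Esr1*, in place of 0. In *Mtm1* KO + TAM against *Mtm1* KO, no filter, DESeq2 and the exact test called 1, *Pgr*, in place of 0. In WT + TAM against WT, 0 were called with limma on log2(RPKM + 0.1) or log2(RPKM + 1), where *Pgr* had adjusted p = 0.0157 and 0.0722 by limma, and with at least 10 counts in every library, which leaves *Pgr* untested. In *Mtm1* KO + TAM against WT + TAM, 2 were called with no filter and 4 (*Esr1*, *Pgr*, *Nr3c1*, *Esrrg*) with DESeq2, the exact test or a threshold of 0.05. *Esr1* lost its call there with library totals (log2 fold change -0.65) and limma (-0.59 and -0.38). In *Mtm1* KO + TAM against WT, 1 was called with library totals, at least 10 counts in every library, limma with 0.1 and 16 libraries, and 0 with limma with 1. *Esr1* lost its call with library totals (-0.65), limma (-0.60 and -0.38) and 16 libraries (-0.79), and *Pgr* with limma with 1 (adjusted p = 0.0352, limma). The log2 fold change of *Nr3c1* in *Mtm1* KO against WT turned positive with library totals (0.016) and limma (0.0044 and 0.0048).

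With each library left out, the number of called members was 0 throughout in WT + TAM against WT (adjusted p of *Pgr* 0.0107 to 0.0241 by edgeR), 0 to 1 in *Mtm1* KO + TAM against WT + TAM (*Esr1* -1.055 to -0.74) and 1 to 2 in *Mtm1* KO + TAM against WT (*Esr1* -1.053 to -0.76). For *Esrrg* in WT + TAM against WT the log2 fold change ran from -0.92 to 0.032. Of 390 values for the 21 pairs of member and comparison printed above, 337 kept both direction and side of the threshold. Of the 27 pairs not printed by value, 13 changed sign under 1 or more settings and none passed the threshold. Calls of the other genes named were lost in 261 of the values recomputed for them, and 721 kept direction and call. No paired analysis was possible because replicate numbers are not shared between groups. At 0 to 42 counts per library, *Pgr* and *Esr2* are limited by depth.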

Other observations

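Among 38 other nuclear receptors, 29 to 31 were tested per comparison, and those called were lower in the *Mtm1* KO groups. *Rxrg*, the retinoid X receptor form enriched in skeletal muscle, had 1537, 1971 and 1571 counts in WT and 811, 585 and 811 in *Mtm1* KO, with no overlap (log2 fold change -1.47, SE 0.19, adjusted p = 0.00233, edgeR). *Rxra*, its broadly expressed relative, fell as well (-0.74, SE 0.13, adjusted p = 0.00774), 2 of 31 against 3.6% of all genes. The call of *Rxra* was lost in all 6 fits that left out 1 library (adjusted p 0.0162 to 0.0271 by edgeR), with library totals, limma and 15 or 16 libraries, whereas that of *Rxrg* held in all of these. In *Mtm1* KO + TAM against WT + TAM, 5 of 29 fell against 6.72% of all genes. *Rxrg* had 1217, 1737, 2056 and 2062 counts in WT + TAM and 656, 708, 602 and 1083 in *Mtm1* KO + TAM (-1.63, SE 0.23). *Rxra* (-0.90), *Nr4a1* (-0.76), *Nr1i3* (-1.19) and *Rxrb* (-0.47) were the others. With 1 library left out, *Rxrg* and *Rxra* kept their calls in all 8 fits, *Nr4a1* and *Nr1i3* in 1 of 8 and *Rxrb* in 0 of 8. Against WT, *Rxrg*, *Rxra* and *Rorb* fell in *Mtm1* KO + TAM, 3 of 31 against 7.7% of all genes, and *Rorb* kept its call in 1 of 7 such fits. Scaled by library total, 1 of 31, 2 of 29 and 2 of 31 were called lower in these comparisons, and none higher. None of these receptors was called with tamoxifen in either genotype. The skeletal muscle marker sums moved with the same split, and their part was not tested.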
